A study of Mus musculus with 9 samples.

Results

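The comparison described here sets mouse colon on a high-fat diet (HFD) with gavage of the bacterium Papillibacter cinnamivorans against colon on HFD alone. It used 6 of the 9 libraries of the study, namely HFD replicates 1, 2 and 4 and bacterium replicates 1, 3 and 4, each assigned by its treatment label. The animals were C57BL/6 mice that entered at 6 weeks of age, 15 per group and 45 in all, and the tissue dates from postnatal day 98. The 3 libraries of the third group, labelled only as control, entered no test here and are given as values beside the others. Gavage is dosing through a tube into the stomach; the labels name it for the bacterium group only, so the bacterium and the gavage cannot be told apart. The labels do not give the stretch of colon taken, a batch or a date. Nor do they tie each library to a mouse of its own, so p-values measure the spread between libraries, which may be technical. Of 54491 rows in the deposited table, the 16962 genes that reached 0.5 FPKM in at least 3 of the 6 libraries were tested. FPKM is the number of fragments scaled by transcript length and library size.

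Papillibacter cinnamivorans is an anaerobic bacterium of the Clostridia, named for its growth on cinnamate, a plant phenolic acid. The table holds mouse genes only, so the presence of the bacterium was not measured. The epithelium of the colon changes along its length: surface cells of the proximal colon carry more brush border enzymes and lipid-handling proteins, while the distal colon takes up sodium through an aldosterone-regulated channel and secretes mucus. This axis is set in the embryo by Hox genes, whose order on the chromosome follows the body axis, the last groups of each cluster being active towards the anus. Below the epithelium lie the lamina propria with immune cells, including lymphoid follicles of B cells, then smooth muscle, enteric neurons and, outside the wall, fat.

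The 2 groups separated on the first principal component, which held 67.2% of the variance over the 6 libraries; the second held 12% and spread the bacterium libraries. Correlation of log2(FPKM + 1) was 0.977 to 0.978 within HFD, 0.952 to 0.965 within the bacterium group and 0.873 to 0.922 between them. The pooled residual SD was 0.257 log2 units in HFD and 0.345 in the bacterium group. Genes encoded by the mitochondrial genome took 28.2% ± 6.62 (SD, n = 3) of summed FPKM with the bacterium and 11.6% ± 1.92 in HFD, against 21.7% ± 4.53 in control. Immunoglobulin genes took 1.91% ± 1.08 with the bacterium, 8.99% ± 1.75 in HFD and 0.856% ± 0.437 in control. For both shares the groups did not overlap, and the exact two-sided permutation test gave p = 0.1, the smallest that 3 against 3 libraries allow. Such shares can move other FPKM values. A median-of-ratios factor, the median over genes of a library's level relative to the 6 libraries, was 0.9975 to 1.006. The typical gene was thus level between libraries in the values as deposited. The part of these shares in the results below was not tested beyond the rescaled fits. Ratios of low values gave the library size by which FPKM was divided, relative to HFD replicate 1. It was 0.745 to 0.937 in the bacterium libraries and 0.934 to 1 in HFD. Whether this size equals sequencing depth is not known, and total depth is unknown.

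**Figure D1:**
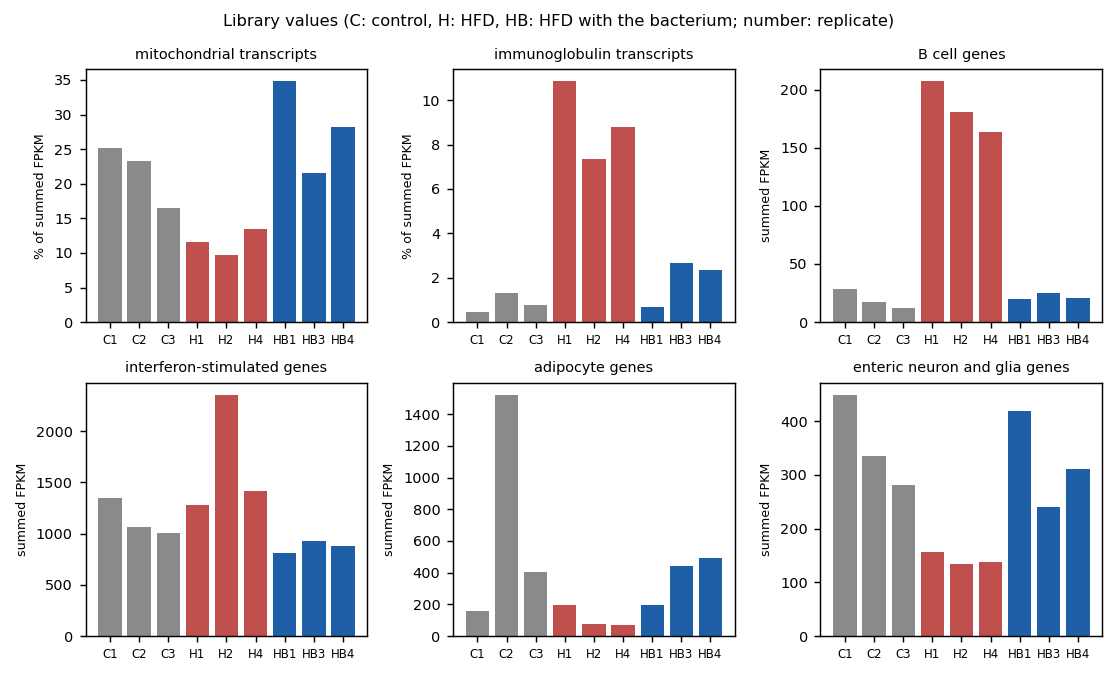
Bars give, for each of the 9 libraries (C control, H HFD, HB HFD with the bacterium, with the replicate number), the percent of summed FPKM from mitochondrial and immunoglobulin transcripts and the summed FPKM of B cell, interferon-stimulated, adipocyte and enteric neuron and glia genes. The immunoglobulin share is 7.36% to 10.8% in the HFD libraries and 0.676% to 2.68% in the bacterium libraries, and HFD replicate 2 has the tallest bar for interferon-stimulated genes.

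With the bacterium, 1533 genes were higher and 1783 lower than in HFD alone (limma, adjusted p below 0.05), 3316 or 19.5% of the genes tested. Of all tested genes 9.04% were called higher and 10.5% lower, and 39.7% had groups that did not overlap. The difference exceeded 1 log2 unit for 565 genes called higher and 708 called lower, while the median over all genes was -0.02. In each of the 3316 called genes the 3 HFD and the 3 bacterium libraries did not overlap, so for any gene that rose or fell below all 3 libraries of 1 group lie on the same side of the other. All 54 called variable segments of immunoglobulin genes, of 163 tested, were lower. The count moved with the library left out: it was 1829, 1839 and 2105 without HFD replicate 1, 2 or 4. It was 4523 without bacterium replicate 3, the library nearest to HFD for 852 of the genes called higher and 857 of those called lower. With each library rescaled to the same sum (TPM scaling), 1058 genes were higher and 2518 lower, so the share of higher calls was 29.59% in place of 46.23%.

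Values set together as a triple below are FPKM of replicates 1, 2 and 4 of HFD, of replicates 1, 3 and 4 of the bacterium group and of replicates 1, 2 and 3 of control. Every log2 difference is bacterium minus HFD of log2(FPKM + 1), and the added 1 shrinks differences between small values. The 15 largest differences in each direction are listed by gene. Higher were the cytochromes Cyp2c65 and Cyp2c55, the surface protein Tmigd1, Sptssb (a subunit of the enzyme that starts sphingolipid synthesis), the carbonic anhydrase Car1 and Isx, a homeobox factor that represses carotenoid uptake. With them were the bile acid carriers Slc51a and Slc10a2, the antimicrobial lectin Reg3b, the fatty acid binding protein Fabp2, intestinal alkaline phosphatase Alpi, Prap1, the hormone neurotensin (Nts), the thiolase Acaa1b and the glucuronosyltransferase Ugt2b5. Lower were the transglutaminase Tgm3, Sval1, Ly6g, the homeobox genes Hoxb13 and Hoxd13, the proton-potassium pump subunit Atp12a, the pentraxin Mptx1, Slc37a2, the glycosyltransferase B3gnt7 and the caspase Casp14. The other 5 were the protease inhibitor Spink1, Thbs4, the calcium-binding protein S100g, the sodium pump regulator Fxyd4 and Ighg2c, an immunoglobulin heavy chain. Of these 30 genes, 10 passed the filter on low values through 1 group only (Acaa1b, Alpi, Isx, Nts, Slc51a, Sptssb, Ugt2b5, Casp14, Fxyd4 and Hoxd13), every library of the other group being under 0.5 FPKM. The filter itself sets the groups of such genes apart, so their differences are given below as a description, without a p. They made up 591 of the genes tested and 430 of the 3316 called, 190 higher and 240 lower.

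Prap1, a secreted protein of the epithelium, measured 0.43, 0.36 and 0.553 in HFD and 68, 31.7 and 101 with the bacterium (log2 difference 5.41 ± 0.38 SE, adjusted p = 0.000232). Slc37a2, a sugar phosphate carrier, measured 65.7, 40.5 and 59.3 in HFD and 0.431, 0.506 and 0.822 with the bacterium (log2 difference -5.13 ± 0.20 SE, adjusted p = 2.21e-05). B3gnt7, which extends sulfated glycans of mucins, was 1.59, 11 and 1.42 against 119.9, 108 and 144 in HFD (log2 difference -4.88, adjusted p = 0.00214). In all of these the highest library of the low group lay far below the lowest of the high group. Sval1, a secreted protein, stood at 669, 740.0 and 1029 in HFD and 4.3, 11.1 and 5.09 with the bacterium (log2 difference -6.77, adjusted p = 5.99e-05). Spink1, a trypsin inhibitor, stood at 470.3, 434 and 394 in HFD and 27.2, 18.4 and 20.6 with the bacterium (log2 difference -4.25, adjusted p = 2.22e-05). Thbs4, a matrix protein, gave 98.7, 109 and 92.3 in HFD and 4.39, 8.72 and 2.21 with the bacterium (log2 difference -4.19, adjusted p = 0.000551). Casp14, a caspase of cornifying epithelia, was at 18.1, 19.4 and 19.3 in HFD and listed at 0 in all 3 bacterium libraries, so no fold is given. Mptx1 differed between the bacterium libraries themselves, at 13, 249 and 4.34, with replicate 3 the high one, against 902, 1451 and 811 in HFD. Its call was lost in 5 of the 6 fits with 1 library less (adjusted p = 0.0716 to 0.105 without HFD replicates 1, 2 and 4 or bacterium replicates 1 and 4, each left out in turn).

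**Figure D2:**
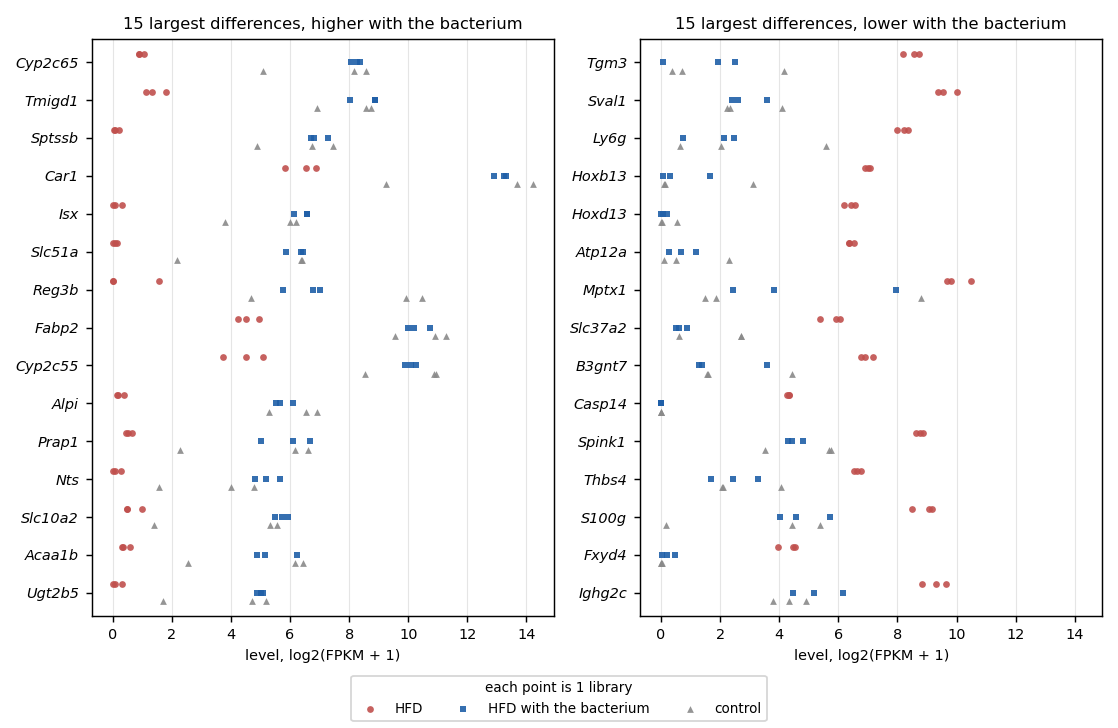
Level as log2(FPKM + 1) of the 15 genes with the largest positive (left) and the 15 with the largest negative difference (right); each point is 1 library, with HFD, HFD with the bacterium and control marked apart. The 30 genes were taken from those whose HFD and bacterium libraries do not overlap, so the gap between these points follows from the choice.

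**Figure D3:**
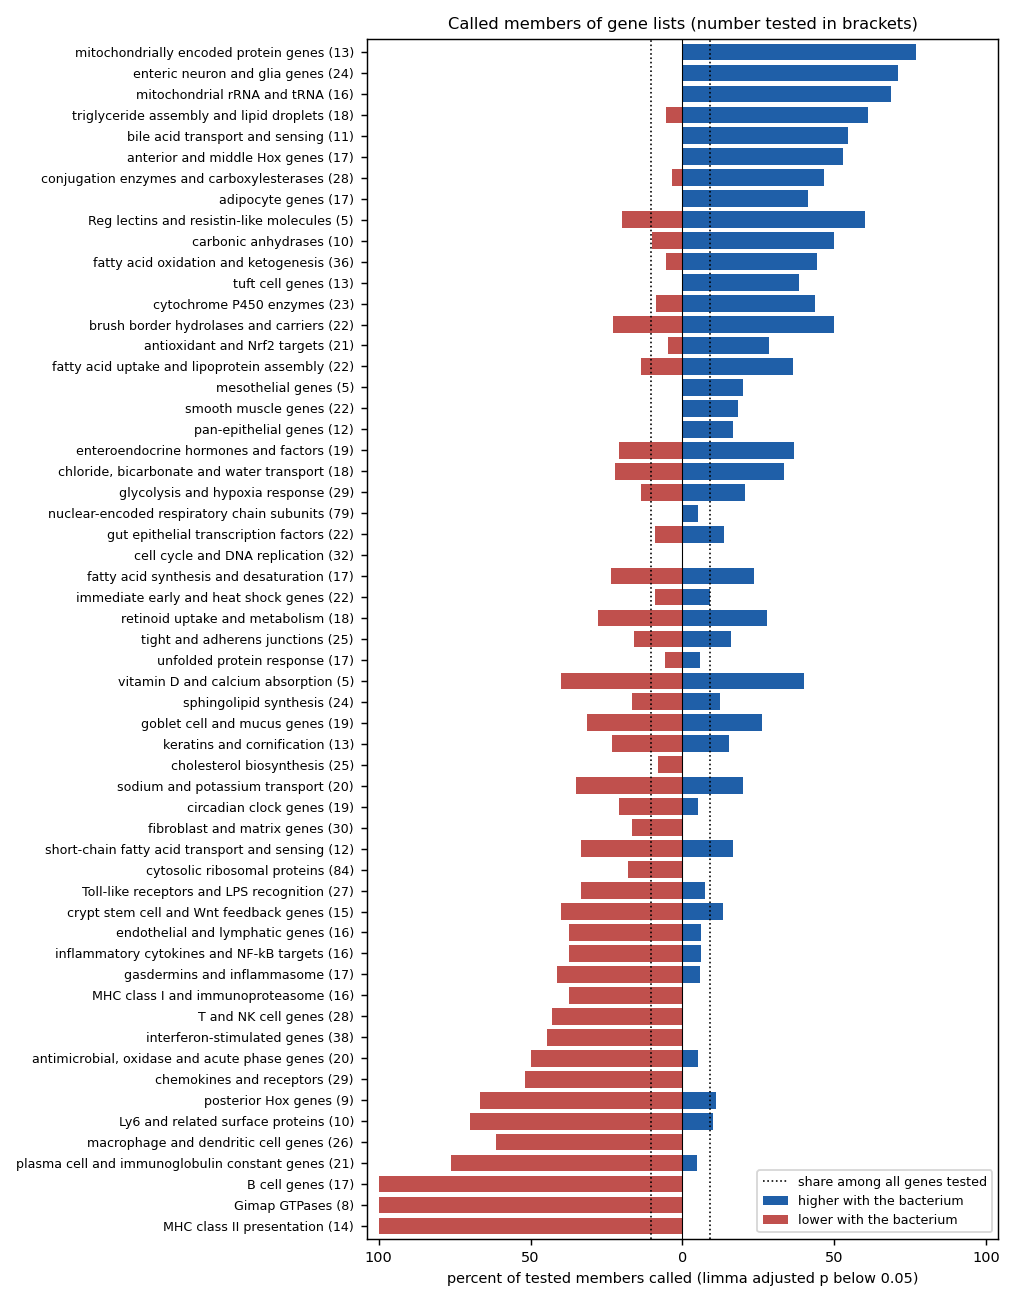
Percent of tested members called higher (to the right) and lower (to the left) with the bacterium in each gene list with at least 5 tested members, the number tested in brackets; dotted lines mark the 9.04% and 10.5% among all genes tested. All tested B cell, Gimap and MHC class II genes are called lower, and no cell cycle gene is called.

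Posterior Hox genes, active in the hindgut, were lower with the bacterium: of 8 tested, Hoxa13, Hoxb13, Hoxd11, Hoxd12 and Hoxd13 fell and 1 rose, with a median of -1.88 against -0.02 over all genes, of which 10.5% fell. The list also held Evx2, a homeobox gene beside the D cluster that is not a Hox gene and was called lower as well. Hoxd12, Hoxd13 and Evx2 passed the filter through HFD only; without them 3 of 6 fell and the median was -1.13. Anterior and middle Hox genes were higher in 9 of 17 tested members and lower in none (median 0.59). Hoxb3, Hoxb8 and Hoxd4 passed through the bacterium group only, and without them 6 of 14 rose (median 0.37). Evx2, Hoxb3, Hoxd4 and Hoxd11 are named here after their values were seen. Hoxb13, the last gene of its cluster, measured 118, 128 and 134 in HFD and 0.227, 2.15 and 0.0516 with the bacterium (log2 difference -6.32 ± 0.39 SE, adjusted p = 0.000141) and 7.73, 0.0598 and 0.0898 in control. Hoxd13 measured 86, 94.3 and 72.6 in HFD and 0, 0.0483 and 0.137 with the bacterium (log2 difference -6.32, with all 3 bacterium libraries under the filter), with 0.45, 0 and 0.0266 in control. Hoxd12 was 5.22, 6.36 and 4.62 in HFD and listed at 0 in all 3 bacterium and all 3 control libraries. Hoxa13 stood at 31.3, 34.1 and 36 in HFD and 6.2, 10.1 and 2.28 with the bacterium (log2 difference -2.44, adjusted p = 0.00774), so this posterior gene remained measurable with the bacterium. In control Hoxa13 was 26, 2.06 and 0.385, with replicate 1 close to HFD. In the opposite direction, Hoxb6 measured 1.14, 0.937 and 1.34 in HFD and 35.2, 23.6 and 42.7 with the bacterium (log2 difference 3.99, adjusted p = 8.19e-05) and 6.08, 45.7 and 64.2 in control. Hoxb8 measured 0.283, 0.0846 and 0.499 in HFD and 14.3, 12.6 and 16.3 with the bacterium (log2 difference 3.59, with all 3 HFD libraries under the filter). Hoxb7 rose from 1.07, 1.01 and 0.666 to 10.1, 11.9 and 13 (log2 difference 2.72, adjusted p = 6.58e-05). Hoxb5 rose from 1.57, 1.56 and 1.5 to 17.9, 8.74 and 15.7 (log2 difference 2.52, adjusted p = 0.000789). Hoxa10 did not pass the test, at 18.1, 18.1 and 17.9 in HFD and 14.5, 14.1 and 8.4 with the bacterium (adjusted p = 0.0996). Unlike the posterior genes that fell, Hoxa11 rose, from 1.8, 1.97 and 1.65 to 3.35, 3.99 and 2.99 (log2 difference 0.66, adjusted p = 0.0115, or adjusted p = 0.0503 without HFD replicate 1). Hoxa11 overlaps an antisense gene and strand use in counting is not stated. Whether reads of the pair were mixed was not tested. With Evx2 counted, 6 members of the posterior list were lower in every fit with 1 library less. Hox genes mark position along the gut, the labels give none, and treatment and position of the piece cannot be told apart in any list that follows.

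**Figure D4:**
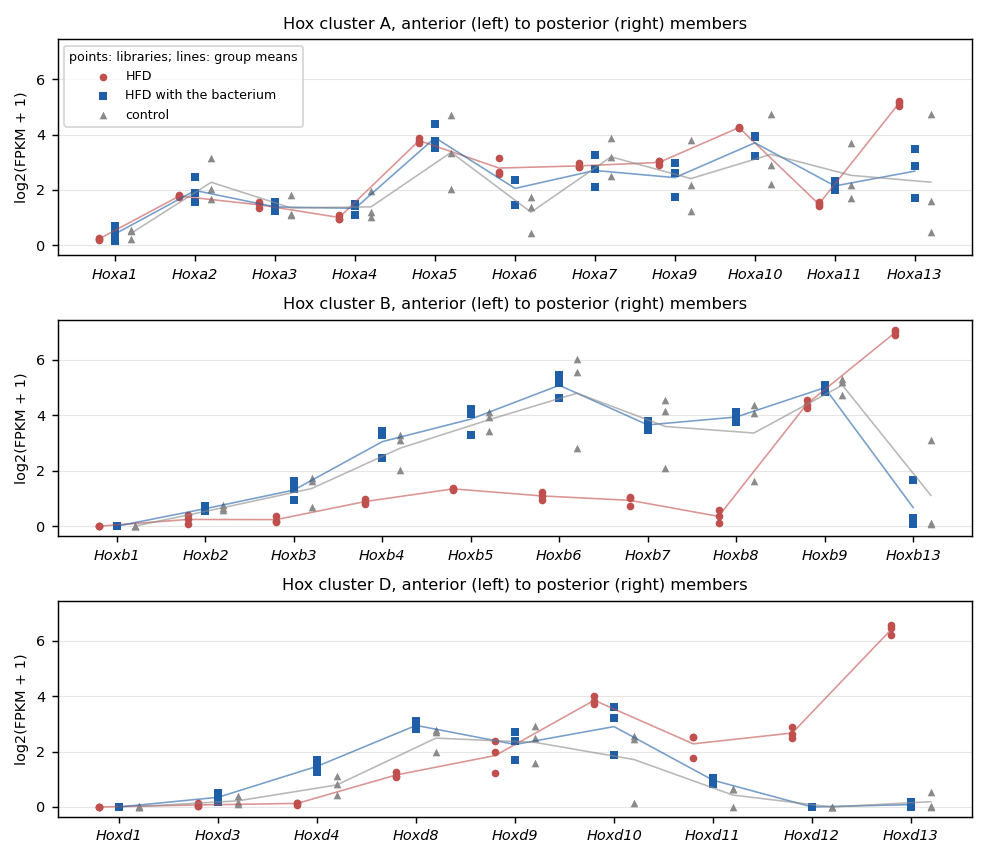
Level as log2(FPKM + 1) of the members of Hox clusters A, B and D in order along each cluster; points are libraries and lines join group means. HFD is high at the last member of each cluster, Hoxa13, Hoxb13 and Hoxd13, and the bacterium libraries lie above HFD at Hoxb5, Hoxb6, Hoxb7 and Hoxb8.

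Among transcription factors of the gut epithelium 3 of 22 tested rose and 2 fell (median -0.23), beside 9.04% and 10.5% over all genes tested. The 2 became 6 without bacterium replicate 3 and 1 in each of the other fits with 1 library less, and 7 under TPM scaling. Isx measured 0.238, 0.0622 and 0 in HFD and 93.2, 68.5 and 94.7 with the bacterium (log2 difference 6.29 ± 0.16 SE, with all 3 HFD libraries under the filter). Cdx2, which keeps intestinal identity, measured 8.18, 6.66 and 9.45 in HFD and 72, 80.3 and 54.3 with the bacterium (log2 difference 2.93, adjusted p = 0.000141), and control was 73.2, 121 and 141. Creb3l3, a factor of lipid metabolism in liver and gut, rose from 1.96, 1.77 and 2.12 to 6.05, 4.95 and 8.17 (adjusted p = 0.0028). Foxa2 fell from 16.4, 14.2 and 19.4 to 2.69, 3.75 and 3.63 (log2 difference -2.02, adjusted p = 0.000328). Klf5, a factor of crypt cells, fell by a smaller amount, from 83.5, 91.9 and 91.8 to 67.7, 68.3 and 51.5, adjusted p = 0.045 (adjusted p = 0.0652 to 0.141 without HFD replicates 1, 2 and 4 or bacterium replicates 1 and 4, each left out in turn). The labelled tissue was checked on the epithelial genes: Cdx2, and Car1 of the colon surface, were above 0 in all 6 libraries. Of 12 pan-epithelial genes Phgr1 and Vil1 rose and none fell (median 0.15, which became -0.05 under TPM scaling). Vil1, the actin bundler villin, measured 116, 121 and 111 in HFD and 169, 167 and 154 with the bacterium, adjusted p = 0.0219 (adjusted p = 0.0625 to 0.0868 without HFD replicates 1, 2 and 4 or bacterium replicate 1, each left out in turn). Phgr1 measured 298, 334 and 196 in HFD and 599.8, 661 and 479.5 with the bacterium, adjusted p = 0.0209 (adjusted p = 0.0581 to 0.059 without HFD replicate 1 or bacterium replicate 1, each left out in turn). Epcam, the general epithelial adhesion molecule, did not pass the test at 634, 690.5 and 598 in HFD and 562, 626 and 419 with the bacterium (adjusted p = 0.358), nor did Cdh1 at 235, 254 and 235 in HFD and 186, 199.9 and 127 with the bacterium (adjusted p = 0.101).

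Brush border hydrolases and carriers rose more often than they fell: 11 of 22 tested members against 5, with a median of 0.40. Without Alpi and Sis, which passed the filter through the bacterium group only, 9 of 20 rose and the median was 0.11. Tmigd1, an adhesion protein of the brush border, was 120.5, 431 and 375 in control beside 469, 262 and 466 against 1.5, 1.16 and 2.48 in HFD (log2 difference 7.18 ± 0.28 SE, adjusted p = 2.21e-05). Alpi measured 0.297, 0.0954 and 0.122 in HFD and 67.8, 49.8 and 45.6 with the bacterium (log2 difference 5.55, with all 3 HFD libraries under the filter) and 37.9, 119 and 92.1 in control. Slc3a1, a subunit of the cystine carrier, measured 0.54, 0.319 and 1.11 in HFD and 20.8, 23.9 and 15.4 with the bacterium (log2 difference 3.67, adjusted p = 0.000125). Naaladl1, a peptidase, measured 12.8, 8.42 and 11.5 in HFD and 65.5, 44.8 and 77.1 with the bacterium (log2 difference 2.40, adjusted p = 0.000834). Sucrase-isomaltase, Sis, is an enzyme of the small intestine and stayed low in all 6 libraries, at 0.121, 0.0224 and 0 in HFD and 1.72, 1.66 and 2.52 with the bacterium (log2 difference 1.49, with all 3 HFD libraries under the filter). Against the majority, the peptide carrier Slc15a1 fell from 28.6, 19.5 and 23 to 9.58, 4.47 and 1.28, adjusted p = 0.0236 (adjusted p = 0.0629 to 0.0849 without HFD replicates 1, 2 and 4, each left out in turn). Ace, angiotensin-converting enzyme, fell from 8.55, 6.07 and 5.25 to 1.42, 2.39 and 1.88 (log2 difference -1.39, adjusted p = 0.00403). The number of falling members was 3 in place of 5 without HFD replicate 1, 2 or 4. Paneth cell genes, markers of small intestinal crypts, were near or at 0: 6 of 7 were listed at 0 in all 6 libraries and Mmp7 did not pass the test at 0.15, 2.3 and 0 in HFD and 2.88, 2.53 and 3.62 with the bacterium (adjusted p = 0.0727).

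Bile acid handling was higher throughout its called members: 6 of 11 tested genes rose, none fell, and the median was 1.21, or 0.65 without Slc51a. Slc10a2 is the apical carrier that takes bile acids from the lumen, Fabp6 binds them in the cell and Slc51a with Slc51b forms the exporter on the blood side. Slc10a2 measured 0.411, 0.389 and 1.0 in HFD and 59.9, 43.7 and 51.8 with the bacterium (log2 difference 5.05 ± 0.18 SE, adjusted p = 1.89e-05) and 1.64, 46.5 and 38.7 in control. Slc51a measured 0, 0.0523 and 0.107 in HFD and 81, 57.7 and 86.1 with the bacterium (log2 difference 6.15 ± 0.16 SE, with all 3 HFD libraries under the filter) and 3.49, 81.4 and 84.6 in control. All 3 HFD libraries were near 0 for both, and control replicate 1 was the low one of its group. Slc51b measured 16.2, 21 and 13.1 in HFD and 72.6, 52.7 and 84.7 with the bacterium (log2 difference 1.996, adjusted p = 0.00159). Fabp6 measured 20.5, 30.5 and 11.1 in HFD and 90.2, 69.4 and 155 with the bacterium (log2 difference 2.31, adjusted p = 0.00974), and 1.596, 466 and 111 in control, which spread widely. Nr1h4, the bile acid receptor FXR, measured 23.9, 26.6 and 26.4 in HFD and 66.5, 50.8 and 65.9 with the bacterium (log2 difference 1.21, adjusted p = 0.00151). Fgf15, the hormone that FXR induces in the ileum, was not tested because it stayed under the filter. The count of 6 was the same in each fit with 1 library less, and 3 genes were called with all 9 libraries in 1 fit.

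Among genes of fatty acid oxidation and ketogenesis 16 of 36 tested members rose, 2 fell, and the median was 0.45. Acaa1b, a peroxisomal thiolase, measured 0.489, 0.284 and 0.233 in HFD and 34.5, 28.6 and 74.3 with the bacterium (log2 difference 5.01 ± 0.33 SE, with all 3 HFD libraries under the filter). Vnn1, a pantetheinase that recycles a precursor of coenzyme A, measured 1.13, 0.346 and 0.827 in HFD and 44.5, 26.1 and 57.7 with the bacterium (log2 difference 4.59, adjusted p = 0.00018). Pdk4, which holds back pyruvate oxidation, measured 4.1, 2.87 and 2.91 in HFD and 35.3, 23.5 and 63.6 with the bacterium (log2 difference 3.18, adjusted p = 0.00126) and 13.5, 34.4 and 22.4 in control. Ppara, the receptor that drives these genes in liver, stayed low but rose from 0.417, 0.451 and 0.64 to 1.77, 2.97 and 2.03 (log2 difference 1.10, adjusted p = 0.00504). Cpt1a, which admits fatty acids to mitochondria, did not pass the test at 33.7, 27.1 and 31.3 in HFD and 38.6, 36.7 and 35.4 with the bacterium (adjusted p = 0.157). Without HFD replicate 1, 2 or 4 none fell, and 1 fell without bacterium replicate 1. One that fell was Oxct1, which uses ketone bodies, at 71.5, 74.4 and 78.3 in HFD and 52.3, 50.4 and 36.7 with the bacterium (log2 difference -0.69, adjusted p = 0.0224; adjusted p = 0.0676 to 0.0784 without HFD replicates 1, 2 and 4, each left out in turn). The coactivator Ppargc1a fell too, at 11.1, 9.91 and 10.3 in HFD and 4.65, 5.33 and 7.99 with the bacterium (log2 difference -0.74, adjusted p = 0.0302; adjusted p = 0.0584 to 0.106 without HFD replicates 1, 2 and 4 or bacterium replicates 1 and 3, each left out in turn).

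Of 22 tested genes of fatty acid uptake and lipoprotein assembly, 8 rose and 3 fell (median 0.59). Fabp2, the intestinal fatty acid binding protein, measured 21.7, 18.1 and 30.2 in HFD and 1723, 1007 and 1177 with the bacterium (log2 difference 5.74 ± 0.26 SE, adjusted p = 4.52e-05) and 743, 2458 and 1905 in control. Slc27a4, a fatty acid carrier with acyl-CoA synthetase activity, measured 6.02, 7.39 and 7.08 in HFD and 22, 25.8 and 22 with the bacterium (log2 difference 1.63, adjusted p = 0.000256). Abcg5 and Abcg8 form the exporter that returns sterols to the lumen. Abcg5 measured 10.2, 8.94 and 9.24 in HFD and 1.27, 0.885 and 0.483 with the bacterium (log2 difference -2.50, adjusted p = 0.000187). Abcg8 measured 2.45, 2.07 and 1.86 in HFD and 0.363, 0.416 and 0.0911 with the bacterium (log2 difference -1.28, with all 3 bacterium libraries under the filter). The liver form Fabp1 was near 0 in this tissue, at 0.579, 0.202 and 0 in HFD and 0.906, 1.09 and 1.03 with the bacterium, adjusted p = 0.0411 (adjusted p = 0.0739 to 0.126 without HFD replicates 2 and 4 or bacterium replicates 1, 3 and 4, each left out in turn). The count of 8 was 4 without HFD replicate 2 and 5 without HFD replicate 4 or bacterium replicate 4, and 4 under TPM scaling.

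Triglyceride assembly and lipid droplets gave 11 of 18 tested members higher and 1 lower (median 0.68); the 11 became 7 without HFD replicate 1, and under TPM scaling 7 were higher and 3 lower. Mogat2 makes diglyceride from absorbed monoglyceride and measured 0.0872, 0.152 and 0.249 in HFD and 4.52, 3.7 and 3.5 with the bacterium (log2 difference 2.07, with all 3 HFD libraries under the filter). Dgat2, which adds the last fatty acid, measured 11.9, 11.6 and 10.2 in HFD and 26.4, 48.3 and 49.6 with the bacterium (log2 difference 1.75, adjusted p = 0.00361). Its partner Dgat1 rose from 9.93, 9.36 and 11 to 19.6, 15.2 and 14.9, adjusted p = 0.0153 (adjusted p = 0.0625 to 0.0671 without HFD replicates 1 and 2, each left out in turn). Mgll, which splits monoglyceride, measured 8.68, 5.55 and 5.59 in HFD and 33.2, 30.8 and 38.4 with the bacterium (log2 difference 2.23, adjusted p = 0.000393). Lpin2, a phosphatidate phosphatase, measured 3.13, 2.85 and 2.86 in HFD and 16.9, 11.2 and 14.3 with the bacterium (log2 difference 1.92, adjusted p = 0.000376). Plin2, the coat of lipid droplets in non-fat cells, fell from 49.8, 44.6 and 43.5 to 26.5, 31.6 and 27 (log2 difference -0.68, adjusted p = 0.00813).

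Fatty acid synthesis was mixed, with 4 of 17 tested members higher and 4 lower. Elovl6, an elongase, measured 3.09, 1.93 and 3.24 in HFD and 15.1, 18.1 and 13.3 with the bacterium (log2 difference 2.14, adjusted p = 0.000455). Me1, malic enzyme, measured 5.31, 4.11 and 3.64 in HFD and 14.3, 16.5 and 15.7 with the bacterium (log2 difference 1.63, adjusted p = 0.000463). Fads2, the first desaturase of polyunsaturated fatty acids, fell from 119, 120.1 and 118 to 12, 28.9 and 15.2 (log2 difference -2.70 ± 0.29 SE, adjusted p = 0.0013). Scd2 fell from 133, 207 and 139 to 41.5, 79.2 and 40.6 (log2 difference -1.59, adjusted p = 0.012). Fasn and Acaca, the core of synthesis, did not pass the test: Fasn was 15, 17.3 and 14.7 in HFD and 12.2, 24.1 and 18.5 with the bacterium (adjusted p = 0.662). Acaca measured 2.19, 2.25 and 2.07 in HFD and 2.04, 3.16 and 2.33 with the bacterium (adjusted p = 0.543). Srebf1, the factor that drives them, was 14.4, 19.4 and 15.5 in HFD and 16, 16.3 and 15.2 with the bacterium (adjusted p = 0.854). In cholesterol synthesis 2 of 25 tested genes fell, below the 10.5% over all genes tested, none rose and the median was -0.06. Those 2 became 1 without bacterium replicate 3 and none without any other library. The first was Insig1 at 42.9, 50.5 and 38.1 in HFD and 33.6, 28.8 and 31 with the bacterium, adjusted p = 0.0476 (adjusted p = 0.0517 to 0.147 without HFD replicates 1, 2 and 4 or bacterium replicates 1, 3 and 4, each left out in turn). The second was Ebp at 28.5, 31.7 and 28.9 in HFD and 19.9, 24.2 and 18.8 with the bacterium, adjusted p = 0.0331 (adjusted p = 0.0868 to 0.122 without HFD replicates 1, 2 and 4 or bacterium replicates 1 and 4, each left out in turn).

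**Figure D5:**
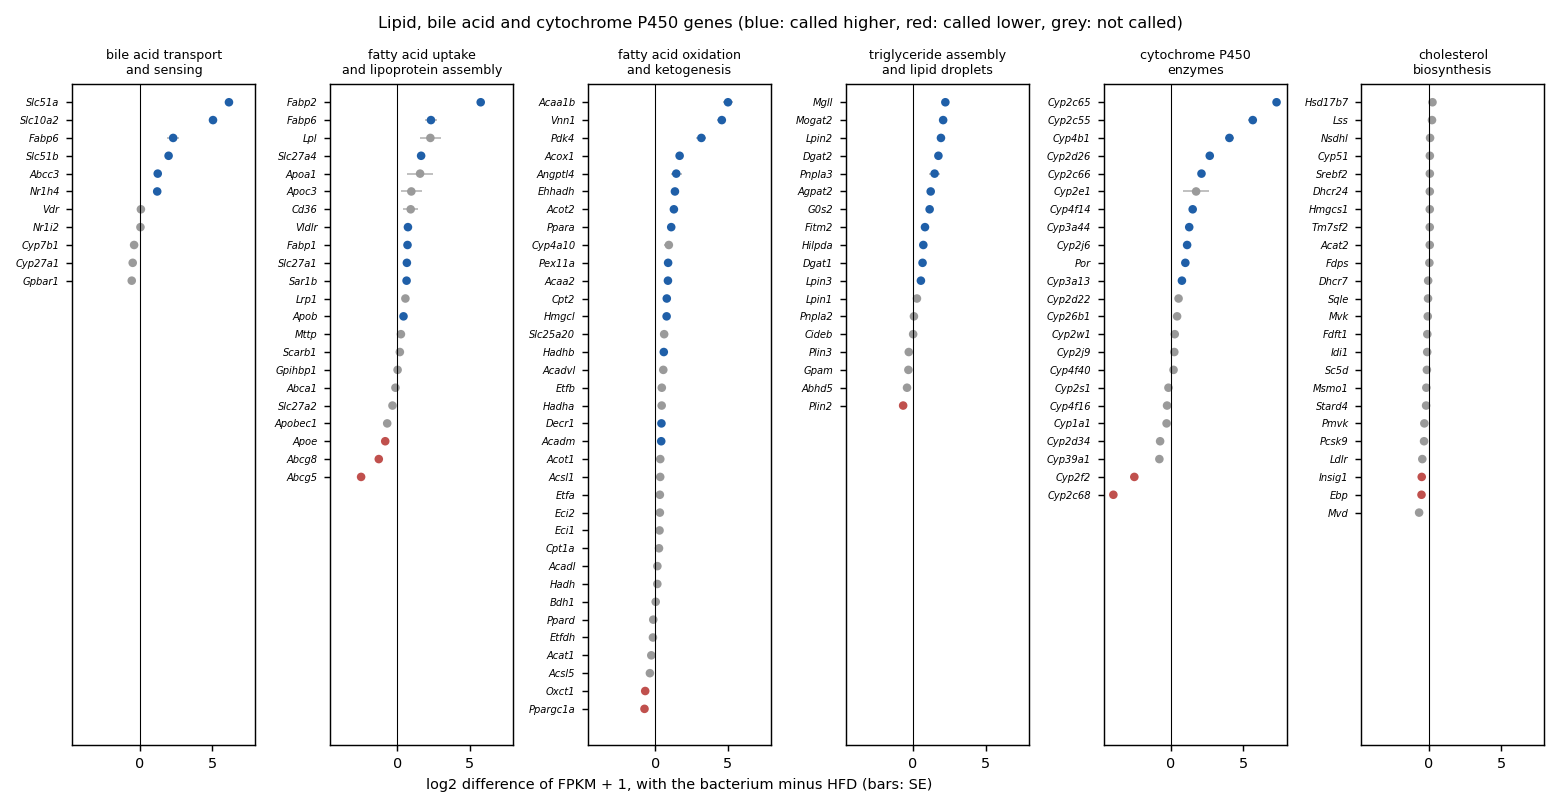
Log2 difference of FPKM + 1 (bacterium minus HFD, bars SE) of tested genes of bile acid, fatty acid, triglyceride, cytochrome P450 and cholesterol lists, a few members not being drawn; blue points are called higher, red called lower and grey not called. Slc51a, Fabp2, Acaa1b and Cyp2c65 lead their panels, Abcg5 and Cyp2c68 lie at the negative end, and the cholesterol genes drawn lie close to 0.

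Cytochrome P450 enzymes, which oxidize drugs, steroids and fatty acids, gave 10 of 23 tested members higher and 2 lower, or 4 lower under TPM scaling (median 0.53). Of these calls, 2 higher and 1 lower were of genes that passed the filter through 1 group only. Near-identical copies make single members of this family uncertain. Cyp2c65 measured 0.857, 1.07 and 0.859 in HFD, 303, 264 and 332 with the bacterium and 32.8, 287 and 381 in control. Its difference was the largest of the 16962 genes under the rule for named genes (log2 difference 7.28 ± 0.12 SE, adjusted p = 1.75e-06). Cyp2c55 measured 21.5, 12.4 and 33.1 in HFD and 1094, 955 and 1229 with the bacterium (log2 difference 5.64, adjusted p = 0.000102). Cyp4b1 measured 3.24, 1.83 and 2.58 in HFD and 52.2, 38.9 and 88.1 with the bacterium (log2 difference 4.04, adjusted p = 0.000303), and Cyp2c66 was listed at 0 in all 3 HFD libraries and at 3.46, 2.22 and 4.62 with the bacterium. In the opposite direction, Cyp2c68 of the same subfamily measured 62.9, 58.5 and 61.2 in HFD and 3.28, 2.82 and 2.87 with the bacterium (log2 difference -3.96 ± 0.09 SE, adjusted p = 4.36e-06), and 2.18, 4.17 and 2.87 in control. Cyp2f2 measured 8.22, 3.58 and 6.2 in HFD and 0, 0.474 and 0.112 with the bacterium (log2 difference -2.51, with all 3 bacterium libraries under the filter).

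Promoters of 11087 of the 16962 tested genes were matched by symbol in a RefSeq table (GRCm38.p6), in windows of 300 bases around the gene start. The letters CAAAGTCCA, known as a motif specific to HNF4 factors of gut and liver epithelium, were searched on both strands. They occur in 0.568% of the windows of tested genes, in 1.13% of those called higher and in 1.17% of those called lower. Among the lists searched, 0 of 18 fatty acid uptake and lipoprotein genes and 0 of 9 bile acid genes had them in the window. Windows with them include 2 of 20 P450 genes and 2 of 19 brush border genes. The 150 bases before the start are shown for 3 of these genes, because Cyp2c65 and Alpi rose and Cyp2c68 fell with the same letters in the window. Capitals mark the match, which begins 116 bases before the start in Cyp2c65, 19 in Alpi and 77 in Cyp2c68. The stretches lie at chr19:39060856-39061005 (plus strand), chr1:87101607-87101756 (minus strand) and chr19:39741102-39741251 (minus strand) of GRCm38.p6, written 5′ to 3′ on the strand of the gene.
Cyp2c65: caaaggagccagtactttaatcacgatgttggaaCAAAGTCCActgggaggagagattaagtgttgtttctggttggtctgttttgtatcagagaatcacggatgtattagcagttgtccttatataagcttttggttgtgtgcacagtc
Alpi: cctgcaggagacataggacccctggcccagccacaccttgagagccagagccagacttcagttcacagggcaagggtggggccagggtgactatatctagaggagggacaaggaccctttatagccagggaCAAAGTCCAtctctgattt
Cyp2c68: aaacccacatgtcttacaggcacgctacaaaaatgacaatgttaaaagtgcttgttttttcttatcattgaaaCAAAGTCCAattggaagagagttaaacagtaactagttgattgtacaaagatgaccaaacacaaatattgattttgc

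Conjugation enzymes and carboxylesterases, which make lipophilic compounds soluble, gave 13 of 28 tested members higher and 1 lower (median 0.46), 3 of the 13 having passed the filter through the bacterium group only; counts of higher members were 12 or 13 in each fit with 1 library less. Ugt2b5 measured 0, 0.060 and 0.246 in HFD and 28.3, 31.3 and 32.7 with the bacterium (log2 difference 4.85, with all 3 HFD libraries under the filter). Ugt1a1, which conjugates bilirubin, measured 1.03, 0.577 and 1.03 in HFD and 10.3, 14.2 and 11.7 with the bacterium (log2 difference 2.80, adjusted p = 9.58e-05). Ces2e, a carboxylesterase, measured 44.2, 28.1 and 39.4 in HFD and 168, 153 and 144 with the bacterium (log2 difference 2.05, adjusted p = 0.000554). Gsta4, a glutathione transferase for lipid peroxides, measured 10.2, 12.2 and 12.1 in HFD and 49.6, 43.2 and 59.5 with the bacterium (log2 difference 2.04, adjusted p = 0.000231). Ugt and Ces2 genes have close copies, so the level of 1 member is uncertain. Sult1a1, a sulfotransferase for phenols, fell from 241, 284 and 278 to 145, 195 and 185, adjusted p = 0.035 (adjusted p = 0.0673 to 0.12 without HFD replicates 1, 2 and 4 or bacterium replicates 1 and 4, each left out in turn).

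Retinoid genes split, with 5 of 18 tested higher and 5 lower, 2 of the latter having passed the filter through HFD only. The aldehyde dehydrogenase Aldh1a1, which makes retinoic acid, measured 8.47, 6.15 and 7.7 in HFD and 106, 77.3 and 104.42 with the bacterium (log2 difference 3.52 ± 0.17 SE, adjusted p = 5.5e-05). Dhrs9, a retinol dehydrogenase, measured 0.286, 0.638 and 0.334 in HFD and 8.14, 7.61 and 5.0 with the bacterium (log2 difference 2.46, adjusted p = 0.000344). Adh1, an alcohol dehydrogenase that also oxidizes retinol, fell from 465, 457 and 464 to 32.4, 42.4 and 27 (log2 difference -3.75 ± 0.17 SE, adjusted p = 4.8e-05). Rdh16 fell from 23.6, 25.2 and 19.5 to 3.86, 2.59 and 2.68 (log2 difference -2.56, adjusted p = 0.000141). Without HFD replicate 4 both counts were 3, as was the count of lower members without HFD replicate 2. Of 5 tested genes of vitamin D action and calcium absorption 2 rose (1 without HFD replicate 1 or 2) and 2 fell (1 in each fit with 1 library less other than bacterium replicate 3). S100g, the vitamin D-dependent calcium binder calbindin-D9k, fell from 581, 540.3 and 359.6 to 52, 15.3 and 22.5 (log2 difference -4.15, adjusted p = 0.00112). The sodium-calcium exchanger Slc8a1 measured 1.77, 1.61 and 1.41 in HFD and 8.18, 6.69 and 5.62 with the bacterium (log2 difference 1.58, adjusted p = 0.00063). Of 24 tested genes of sphingolipid synthesis 3 rose and 4 fell (median 0.05, or -0.10 under TPM scaling); 1 rose without HFD replicate 1 or 2 or under TPM scaling. Sptssb measured 0.0584, 0.0305 and 0.156 in HFD and 154, 103.71 and 112 with the bacterium (log2 difference 6.83 ± 0.16 SE, with all 3 HFD libraries under the filter). The ceramide synthase Cers5 measured 11.9, 12.9 and 12.9 in HFD and 7.8, 6.93 and 6.54 with the bacterium (log2 difference -0.75, adjusted p = 0.00331). The sphingomyelinase Smpd3 measured 22, 22.5 and 21.9 in HFD and 8.01, 12.2 and 8.9 with the bacterium (log2 difference -1.13, adjusted p = 0.00335). The acid ceramidase Asah1 measured 76.5, 74.3 and 75.5 in HFD and 45.8, 50.3 and 42.1 with the bacterium (log2 difference -0.70, adjusted p = 0.00538).

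Carbonic anhydrases supply bicarbonate and protons for ion exchange, and 5 of 10 tested rose and 1 fell (median 0.62; 3 rose without bacterium replicate 1 or under TPM scaling). Car1 measured 91.5, 56 and 118 in HFD and 10201, 7726 and 9674 with the bacterium (log2 difference 6.74 ± 0.29 SE, adjusted p = 3.66e-05). In control it was 603, 13019 and 19172, replicate 1 being the low one. Car8, a family member without enzyme activity, measured 0.90, 0.695 and 0.667 in HFD and 20.4, 20.6 and 25 with the bacterium (log2 difference 3.71, adjusted p = 1.2e-05). Car12 measured 0.849, 0.631 and 0.895 in HFD and 9.12, 12 and 9.6 with the bacterium (log2 difference 2.64, adjusted p = 6.56e-05). Car2, the cytosolic form, fell from 354, 344 and 400.0 to 220.3, 225 and 221 (log2 difference -0.71, adjusted p = 0.00886). Car3, which fat and muscle also express, did not pass the test at 70.5, 2.49 and 1.61 in HFD and 36, 158 and 178 with the bacterium (adjusted p = 0.103).

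Of 20 tested genes of sodium and potassium transport 4 rose and 7 fell (median -0.50), 2 of the 7, Scnn1g and Fxyd4, having passed the filter through HFD only. Slc9a3, the sodium-proton exchanger of surface cells, measured 4.17, 2.79 and 7.11 in HFD and 55.6, 39.2 and 29.4 with the bacterium (log2 difference 2.92, adjusted p = 0.00154). Sgk1, a kinase of aldosterone action, measured 13.3, 18 and 18.8 in HFD and 39.4, 31.3 and 51.2 with the bacterium (log2 difference 1.22, adjusted p = 0.00846). Atp12a, of the colonic proton-potassium pump, measured 80.9, 81.1 and 91.5 in HFD and 0.606, 1.28 and 0.198 with the bacterium (log2 difference -5.70 ± 0.23 SE, adjusted p = 2.45e-05) and 3.94, 0.0821 and 0.428 in control. Fxyd4, which tunes the sodium pump for aldosterone-sensitive cells, measured 21.2, 22.4 and 14.7 in HFD and 0.146, 0.0307 and 0.378 with the bacterium (log2 difference -4.10 ± 0.19 SE, with all 3 bacterium libraries under the filter). Scnn1g, the gamma subunit of the epithelial sodium channel, was 1.32, 2.26 and 1.47 in HFD and listed at 0 in all 3 bacterium libraries. The alpha subunit Scnn1a fell from 22.7, 18.7 and 22.1 to 11.3, 15.7 and 9.13, adjusted p = 0.0296 (adjusted p = 0.0622 to 0.103 without HFD replicates 1, 2 and 4 or bacterium replicates 1 and 4, each left out in turn). The beta subunit Scnn1b did not pass the test at 2.53, 2.03 and 1.43 in HFD and 0.815, 1.19 and 1.3 with the bacterium (adjusted p = 0.0876). The 7 became 4 without HFD replicate 2 or bacterium replicate 1 and 11 without bacterium replicate 3.

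Chloride, bicarbonate and water transport gave 6 of 18 tested members higher and 4 lower (median -0.04). Guca2a, the hormone guanylin that drives fluid secretion, measured 265, 289 and 358 in HFD and 4526, 3254 and 4048 with the bacterium (log2 difference 3.69 ± 0.21 SE, adjusted p = 9.31e-05) and 3059, 4662 and 4041 in control; its relative Guca2b measured 10.5, 18.8 and 18.1 in HFD and 60.6, 51 and 75.1 with the bacterium (log2 difference 1.94, adjusted p = 0.00255). Best2, a bicarbonate channel of goblet cells in the colon, fell from 18.9, 19.5 and 17.7 to 0.323, 0.65 and 0.59 (log2 difference -3.70 ± 0.12 SE, adjusted p = 1.2e-05). Slc26a3, the chloride-bicarbonate exchanger, fell from 95.9, 82.3 and 114 to 43.8, 41.4 and 14.8, adjusted p = 0.0295 (adjusted p = 0.0716 to 0.0955 without HFD replicates 1, 2 and 4, each left out in turn). The higher members numbered 3 without HFD replicate 2 or 4, and the lower members 2 without HFD replicate 1. Short-chain fatty acids are the main products of fibre fermentation, and 2 of 12 tested genes of their uptake and sensing rose and 4 fell (median 0.02, or -0.14 under TPM scaling). Ffar2, a receptor for them, rose from 1.05, 1.2 and 1.47 to 5.18, 9.59 and 5.0 (log2 difference 1.71, adjusted p = 0.00331). The monocarboxylate carrier Slc16a1 fell to 74.1, 71.4 and 58.9 with the bacterium, a log2 difference of -0.52, adjusted p = 0.0335 (adjusted p = 0.0664 to 0.114 without HFD replicates 1, 2 and 4 or bacterium replicate 4, each left out in turn). The sodium-coupled carrier Slc5a8 fell from 57.7, 46.8 and 66.1 to 25.7, 29 and 15, adjusted p = 0.0141 (adjusted p = 0.0544 to 0.0551 without HFD replicates 1 and 4, each left out in turn). Acsm3, an acyl-CoA synthetase of medium chains, fell from 17.6, 15.6 and 17.1 to 1.51, 6.56 and 3.15 (log2 difference -2.05, adjusted p = 0.00975). In this list 2 members fell without HFD replicate 1 or 4 and 1 rose without HFD replicate 1 or 2 or bacterium replicate 1.

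Goblet cells, which make mucus, had members in both directions: 5 of 19 tested rose and 6 fell (median -0.22). Muc2, the gel-forming mucin, measured 117, 100.2 and 96.8 in HFD and 314, 770.1 and 380.5 with the bacterium (log2 difference 2.10, adjusted p = 0.00588) and 405, 263 and 364 in control. Spdef, the factor of goblet cell maturation, measured 8.93, 8.63 and 9.12 in HFD and 21.7, 55.1 and 31.2 with the bacterium (log2 difference 1.80, adjusted p = 0.00813). B3gnt6, which builds core 3 glycans on mucins, measured 0.36, 0.447 and 0.458 in HFD and 8.87, 29.7 and 11.5 with the bacterium (log2 difference 3.46, with all 3 HFD libraries under the filter). Bacterium replicate 3 was the highest of its group for all 3 of these and for 11 of the 19. Tff3, the trefoil peptide, was lower, at 1318, 1669 and 1649 in HFD and 686, 533 and 761 with the bacterium (log2 difference -1.23, adjusted p = 0.00769). Fcgbp, which binds the mucin network, measured 169, 179 and 156 in HFD and 52.8, 63.5 and 50.5 with the bacterium (log2 difference -1.58, adjusted p = 0.000417). Clca1, a protease that processes mucus, measured 459.8, 478 and 429 in HFD and 136, 191 and 125 with the bacterium (log2 difference -1.62, adjusted p = 0.00167). The membrane mucin Muc1 measured 6.14, 4.94 and 4.5 in HFD and 0.762, 0.716 and 0.388 with the bacterium (log2 difference -1.93, adjusted p = 0.000354).

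Enteroendocrine cells release gut hormones, and 7 of 19 tested genes rose and 4 fell (median 0.27). Nts measured 0.214, 0 and 0.0458 in HFD and 49.7, 26.9 and 35.4 with the bacterium (log2 difference 5.10 ± 0.22 SE, with all 3 HFD libraries under the filter). Somatostatin, Sst, measured 16.5, 16.3 and 14.7 in HFD and 170.5, 81.4 and 121 with the bacterium (log2 difference 2.84, adjusted p = 0.000593). Secretin, Sct, measured 2.31, 8.9 and 2.48 in HFD and 53.2, 30.0 and 50.7 with the bacterium (log2 difference 3.19, adjusted p = 0.00385). Peptide YY, Pyy, a hormone of distal L cells, fell from 162, 194 and 138 to 57.6, 55.9 and 44.1 (log2 difference -1.63, adjusted p = 0.0012). Insl5, another peptide of distal L cells, fell from 104.14, 115 and 119.9 to 3.66, 26 and 2.99 (log2 difference -3.84, adjusted p = 0.00985), with bacterium replicate 3 above the other 2. Gcg, which encodes GLP-1 in the same cells, did not pass the test at 19, 13.7 and 26.3 in HFD and 25, 43.5 and 29.3 with the bacterium (adjusted p = 0.125), nor did Tph1, the serotonin enzyme, at 1.24, 2.16 and 1.85 in HFD and 3.0, 2.21 and 3.4 with the bacterium (adjusted p = 0.0999). The 4 became 2 without HFD replicate 1 or 2. Of 13 tested genes of tuft cells, the chemosensory cells, 5 rose and none fell (median 0.49), or 2 without HFD replicate 1 or 2, 3 without HFD replicate 4 or bacterium replicate 1 and 4 without bacterium replicate 3; 3 rose under TPM scaling. Among the 5 that rose, 1 passed the filter through the bacterium group only. Dclk1, the usual marker of tuft cells, measured 1.16, 0.919 and 1.14 in HFD and 2.7, 2.33 and 2.12 with the bacterium (log2 difference 0.70, adjusted p = 0.00824).

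Genes of crypt stem cells and Wnt feedback were lower in 6 of 15 tested members and higher in 2 (median -0.29); the 6 became 3 without HFD replicate 1, 2 or 4. Ascl2, a stem cell factor, measured 8.21, 12 and 11.1 in HFD and 2.25, 3.77 and 4.1 with the bacterium (log2 difference -1.40, adjusted p = 0.00538). Tcf7, a Wnt effector, measured 7.54, 6.78 and 8.44 in HFD and 1.59, 3.56 and 3.35 with the bacterium (log2 difference -1.20, adjusted p = 0.012). Lgr5, the receptor that marks the stem cells, did not pass the test at 0.758, 0.913 and 0.963 in HFD and 1.21, 1.26 and 1.37 with the bacterium (adjusted p = 0.126). Prom1, also found on brush borders, rose from 3.34, 4.24 and 4.4 to 68.5, 57.3 and 50.4 (log2 difference 3.57, adjusted p = 3.05e-05). None of 32 cell cycle and replication genes was called, with a median of -0.15, but without bacterium replicate 3 there were 11, all lower. Mki67 measured 25.4, 21.4 and 26.2 in HFD and 17.1, 24.9 and 14.5 with the bacterium (adjusted p = 0.228).

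Junction genes gave 4 of 25 tested members higher and 4 lower, with a median of -0.03 that became 0.02 under quantile normalization; 2 were higher under TPM scaling. Cldn8, a sealing claudin of the distal colon, fell from 60.9, 69.9 and 70.9 to 11.4, 15.8 and 12.3 (log2 difference -2.28 ± 0.14 SE, adjusted p = 0.000143). Cldn4 rose from 12.3, 17.3 and 11.8 to 45.7, 27.9 and 33.1 (log2 difference 1.30, adjusted p = 0.00777). The desmosomal cadherin Dsc2 rose from 21.1, 22.9 and 25.2 to 56.3, 60.8 and 44.2 (log2 difference 1.18, adjusted p = 0.00235). The barrier genes Ocln, Tjp1, Cldn1 and Cldn2 did not pass the test. Ocln was 26.8, 26 and 28.9 in HFD and 31.1, 25.6 and 24.6 with the bacterium (adjusted p = 0.963). Tjp1 measured 17.9, 17.4 and 18.1 in HFD and 17.1, 16.8 and 13.8 with the bacterium (adjusted p = 0.371). Cldn1 measured 0.903, 0.99 and 0.696 in HFD and 0.458, 0.992 and 0.682 with the bacterium (adjusted p = 0.597). Cldn2 was 32.4, 31.5 and 34.2 in HFD and 12.9, 48.2 and 15 with the bacterium (adjusted p = 0.397), bacterium replicate 3 lying above HFD and the other 2 below. Counts in both directions were small: 2 rose without HFD replicate 1 or 4 or bacterium replicate 1, and 1 fell without HFD replicate 1, 2 or 4 and 2 without bacterium replicate 1 or 4. In the keratin and cornification list 2 of 13 tested members rose and 3 fell (1 fell without HFD replicate 1, 2 or 4 or bacterium replicate 4). Among the 3, 1 passed the filter through HFD only. Tgm3, which cross-links cornified envelopes, measured 425, 293 and 378 in HFD and 2.84, 4.72 and 0.055 with the bacterium (log2 difference -6.99, adjusted p = 0.000444) and 16.9, 0.622 and 0.288 in control. Krt20, the keratin of surface colonocytes, rose from 171, 209 and 172 to 617, 482 and 376 (log2 difference 1.39, adjusted p = 0.0051). Sprr1a rose from 3.84, 6.57 and 5.24 to 57.8, 36.9 and 48.9 (log2 difference 2.97, adjusted p = 0.000278).

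Ly6 genes, which code for small anchored surface proteins and have close copies, were lower in 7 of 10 tested members in every fit with 1 library less, and 1 rose, which no fit without an HFD library called (median -2.02). Among the 7, 1 passed the filter through HFD only, and without it 6 of 9 fell (median -2.08). Ly6a, also called Sca-1, measured 990.3, 1348 and 893 in HFD and 208, 267 and 231 with the bacterium (log2 difference -2.18, adjusted p = 0.00069) and 327, 155 and 173 in control. Ly6c2, found on monocytes, measured 37.2, 34.9 and 25.7 in HFD and 1.02, 5.83 and 2.82 with the bacterium (log2 difference -3.15, adjusted p = 0.00306). Ly6d measured 24.6, 24.1 and 18 in HFD and 1.92, 3.15 and 2.98 with the bacterium (log2 difference -2.66, adjusted p = 0.000206). Ly6g measured 326, 299 and 252 in HFD and 3.34, 4.52 and 0.664 with the bacterium (log2 difference -6.42, adjusted p = 0.000176). It is known as a neutrophil marker, and other neutrophil genes were low: only 3 of 10 listed genes were tested and 1, Csf3r, was called lower at 1.85, 2.35 and 1.2 in HFD and 0.396, 0.665 and 0.962 with the bacterium, adjusted p = 0.0443 (adjusted p = 0.0507 to 0.142 without HFD replicates 1 and 2 or bacterium replicates 1, 3 and 4, each left out in turn). Elane and Mpo, defining genes of neutrophil granules, stayed under the filter. The Reg lectins and resistin-like molecules gave 3 of 5 tested members higher and 1 lower. Reg3b, a lectin that binds bacteria in the lumen, measured 1.96, 0 and 0 in HFD and 128, 109 and 53.8 with the bacterium (log2 difference 6.00, adjusted p = 0.000444). Reg3g measured 1.26, 1.24 and 0.837 in HFD and 13.9, 19.95 and 6.92 with the bacterium (log2 difference 2.69, adjusted p = 0.00242). Retnlb, a goblet cell product, rose from 12, 28.3 and 5.33 to 182, 527 and 69.8, adjusted p = 0.0185 (adjusted p = 0.0512 to 0.0644 without HFD replicates 1 and 4 or bacterium replicate 1, each left out in turn). Reg4 fell from 247, 344 and 325 to 13.5, 29.4 and 27.5 (log2 difference -3.70, adjusted p = 0.000396).

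Other antimicrobial, oxidase and acute phase genes were lower in 10 of 20 tested members and higher in 1 (median -0.65). One of the 10 passed the filter through HFD only. Wfdc2, a secreted protease inhibitor, measured 171, 183 and 185 in HFD and 21.6, 24.8 and 15.8 with the bacterium (log2 difference -3.07 ± 0.17 SE, adjusted p = 8.65e-05). Slpi, another inhibitor with antimicrobial activity, fell from 48.3, 59.2 and 34.6 to 4.06, 9.87 and 12.8 (log2 difference -2.37, adjusted p = 0.0069). Saa3, an acute phase protein, the 1 higher member, measured 0.389, 0.385 and 0.219 in HFD and 6.31, 3.5 and 5.07 with the bacterium (log2 difference 2.14, with all 3 HFD libraries under the filter). Lcn2, the siderophore binder used as a marker of gut inflammation, did not pass the test at 1.91, 1.32 and 1.09 in HFD and 0.436, 26.6 and 1.24 with the bacterium (adjusted p = 0.59), bacterium replicate 3 being far above the other 5 libraries. Among gasdermins and inflammasome genes 7 of 17 tested fell and 1 rose (median -0.08); 4 fell without HFD replicate 1 or 2. The cytokine Il18 fell from 83.8, 67.9 and 90.2 to 13.1, 11.9 and 10.4 (log2 difference -2.67 ± 0.14 SE, adjusted p = 8.31e-05). Gsdmc4 fell from 410.0, 467 and 515 to 64.5, 116 and 50.1 (log2 difference -2.66, adjusted p = 0.00159). Gsdmc3 fell from 153, 217 and 202 to 67.4, 49.9 and 41.6 (log2 difference -1.84, adjusted p = 0.00181), and both lie in a cluster of close copies. Gsdme rose from 0.916, 1.07 and 1.35 to 3.67, 3.21 and 4.17 (log2 difference 1.15, adjusted p = 0.00168).

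B cell genes were lower in all 17 tested members, in every fit with 1 library less, with a median of -2.39; 6 of the 17 passed the filter through HFD only, and the median of the other 11 was -2.52. In bulk tissue, fewer cells of a type and less RNA per cell cannot be told apart. Cd79a, a signalling chain of the B cell receptor, measured 40.0, 35.9 and 20.9 in HFD and 0.835, 3.21 and 1.84 with the bacterium (log2 difference -3.52, adjusted p = 0.000963). The other chain, Cd79b, measured 34.1, 28.1 and 31.4 in HFD and 3.0, 3.9 and 2.11 with the bacterium (log2 difference -3.03, adjusted p = 0.000113). Ms4a1, the antigen CD20, measured 8.69, 7.7 and 7.98 in HFD and 0.578, 0.466 and 0.267 with the bacterium (log2 difference -2.67, adjusted p = 4.52e-05). The summed level of the list was 164 to 207 in HFD and 19.9 to 25.3 with the bacterium and the groups did not overlap. Plasma cell and immunoglobulin constant genes were lower in 16 of 21 tested members and higher in 1 (median -1.81), and 1 of the 16 passed the filter through HFD only. Ighd, the heavy chain of naive B cells, measured 33.4, 24.1 and 32.3 in HFD and 1.62, 1.48 and 1.32 with the bacterium (log2 difference -3.63 ± 0.14 SE, adjusted p = 2.45e-05). Ighg2c measured 790.2, 634 and 453 in HFD and 21, 70.6 and 35.3 with the bacterium (log2 difference -3.99, adjusted p = 0.00135). Ighg2b measured 343, 87.2 and 79.9 in HFD and 5.9, 13.2 and 10.9 with the bacterium (log2 difference -3.68, adjusted p = 0.00617), where HFD replicate 1 stood at 343 above the other 2. Jchain, which joins secreted IgA and IgM, fell from 1023, 799 and 846 to 193, 403 and 330.3 (log2 difference -1.58, adjusted p = 0.0103). The epithelial carrier of IgA, Pigr, fell from 949, 769 and 1007 to 403, 625 and 348, adjusted p = 0.0314 (adjusted p = 0.0607 to 0.106 without HFD replicates 1, 2 and 4 or bacterium replicates 1 and 4, each left out in turn). Sdc1 rose from 21.2, 20.6 and 25.4 to 38.3, 45.8 and 35.5 (log2 difference 0.80, adjusted p = 0.00855) and is found on epithelium as well as on plasma cells.

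T and NK cell genes were lower in 12 of 28 tested members and higher in none (median -0.45). Without HFD replicate 2, 6 were lower, and 1 of the 12 had passed the filter through HFD only. Ccr7, a homing receptor of naive lymphocytes, measured 3.83, 4.48 and 3.81 in HFD and 0.253, 0.698 and 0.431 with the bacterium (log2 difference -1.80, adjusted p = 0.000393). Cd3e, a chain of the T cell receptor complex, measured 2.82, 3.17 and 2.77 in HFD and 1.39, 1.71 and 1.51 with the bacterium (log2 difference -0.63, adjusted p = 0.00841). Cd4 measured 6.61, 4.59 and 4.89 in HFD and 1.15, 2.2 and 1.98 with the bacterium (log2 difference -1.20, adjusted p = 0.00669). The 8 Gimap GTPases, which support lymphocyte survival, were all called lower (median -0.77), 5 of them without HFD replicate 1, 2 or 4. Gimap6 measured 12.9, 11.5 and 10.7 in HFD and 4.99, 4.94 and 5.76 with the bacterium (log2 difference -1.02, adjusted p = 0.00136). Summed levels of the T and NK list were 163 to 198 in HFD and 118 to 129.6 with the bacterium.

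Macrophage and dendritic cell genes were lower in 16 of 26 tested members and higher in none (median -0.90), with 9 without HFD replicate 1 and 10 without HFD replicate 2. Among the 16, 1 passed the filter through HFD only. Lyz2, the lysozyme of myeloid cells, measured 351, 338 and 335 in HFD and 87.4, 140.1 and 125 with the bacterium (log2 difference -1.56, adjusted p = 0.00217). Cd68, a lysosomal marker, measured 27.6, 22.4 and 19.5 in HFD and 3.93, 6.35 and 8.87 with the bacterium (log2 difference -1.75, adjusted p = 0.00497). C1qa, a complement chain made by resident macrophages, measured 62.8, 73.5 and 45.4 in HFD and 15.5, 22.9 and 22.3 with the bacterium (log2 difference -1.53, adjusted p = 0.00431). Its partner C1qc measured 41.6, 42.5 and 38.5 in HFD and 9.63, 17.5 and 18.3 with the bacterium (log2 difference -1.42, adjusted p = 0.00712). Csf1r, the receptor these cells need, fell from 15.2, 14 and 13.8 to 4.36, 7.1 and 9.36, adjusted p = 0.0249 (adjusted p = 0.0703 to 0.0888 without HFD replicates 1, 2 and 4, each left out in turn). The sum of the list was 653 to 717 in HFD and 198 to 312 with the bacterium.

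MHC class II genes, which present antigen on B cells, dendritic cells and, when induced, epithelium, were lower in all 14 tested members (median -1.11), and in 8 of 14 without HFD replicate 1 or 2. H2-Ob, which pairs with H2-Oa in the DO chaperone of B cells, measured 8.99, 7.53 and 9.61 in HFD and 1.28, 0.97 and 0.931 with the bacterium (log2 difference -2.24 ± 0.13 SE, adjusted p = 9.65e-05). H2-Oa measured 4.93, 5.19 and 4.51 in HFD and 0.407, 0.64 and 0.89 with the bacterium (log2 difference -1.84, adjusted p = 0.000303). H2-Eb2 measured 4.83, 4.5 and 4.82 in HFD and 0.148, 0.584 and 0.235 with the bacterium (log2 difference -2.13, adjusted p = 0.000208). H2-DMb2 measured 13.9, 14.3 and 17.2 in HFD and 3.32, 1.51 and 2.74 with the bacterium (log2 difference -2.23, adjusted p = 0.00073). The abundant chains differed less: H2-Aa measured 188, 197 and 156 in HFD and 85.6, 105 and 64.3 with the bacterium (log2 difference -1.10, adjusted p = 0.0106). H2-Eb1 measured 215, 250.4 and 186 in HFD and 95.5, 121 and 94.6 with the bacterium (log2 difference -1.06, adjusted p = 0.00593). H2-Ab1 measured 184, 210.0 and 174 in HFD and 114, 125 and 77.4 with the bacterium, adjusted p = 0.025 (adjusted p = 0.0599 to 0.0936 without HFD replicates 1, 2 and 4, each left out in turn). MHC class I and immunoproteasome genes were lower in 6 of 16 tested members and higher in none (median -0.36). Tap1, the peptide carrier, fell from 22.9, 33 and 20.9 to 11.4, 12 and 8.69 (log2 difference -1.17, adjusted p = 0.00813). Nlrc5, their activator, fell from 6.4, 7.94 and 5.36 to 2.43, 2.94 and 2.91 (log2 difference -0.999, adjusted p = 0.0049). HFD replicate 2 was the highest of the 6 libraries in 14 of these 16 genes.

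The Y box, CTGATTGG on either strand, is the part of class II promoters that NF-Y binds. It occurs in the 300-base windows of 4 of 10 class II genes with a promoter in the table, against 6.29% of tested genes, 5.64% of genes called higher and 6.03% of those called lower. The 150 bases before the start of these 4 genes are shown because both the genes with the smaller and those with the larger difference hold the box. Capitals mark it, beginning 51 bases before the start in H2-Aa, 62 in H2-Eb1, 46 in H2-Oa and 103 in H2-Eb2. The stretches lie at chr17:34287824-34287973 (minus strand), chr17:34305717-34305866, chr17:34092229-34092378 and chr17:34325525-34325674 (plus strand) of GRCm38.p6, 5′ to 3′ on the strand of the gene.
H2-Aa: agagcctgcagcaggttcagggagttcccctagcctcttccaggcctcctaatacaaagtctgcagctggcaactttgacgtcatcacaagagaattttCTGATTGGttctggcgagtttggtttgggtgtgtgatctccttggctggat
H2-Eb1: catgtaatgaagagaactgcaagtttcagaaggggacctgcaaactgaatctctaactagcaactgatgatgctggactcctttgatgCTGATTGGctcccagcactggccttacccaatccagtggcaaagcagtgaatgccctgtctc
H2-Oa: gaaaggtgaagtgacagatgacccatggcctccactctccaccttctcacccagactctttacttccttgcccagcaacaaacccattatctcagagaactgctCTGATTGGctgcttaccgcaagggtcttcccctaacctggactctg
H2-Eb2: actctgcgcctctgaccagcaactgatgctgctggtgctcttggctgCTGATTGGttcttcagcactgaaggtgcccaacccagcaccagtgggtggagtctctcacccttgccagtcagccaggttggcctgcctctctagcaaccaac

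Interferon-stimulated genes, the antiviral programme, were lower in 17 of 38 tested members and higher in none (median -0.63). HFD replicate 2 was the highest of the 6 libraries for each of the 38 genes, and 9 were called without it, 10 without HFD replicate 4 and 11 without bacterium replicate 1 or 4. Ifi27l2a measured 379, 717 and 417 in HFD and 92.3, 155 and 138 with the bacterium (log2 difference -1.94, adjusted p = 0.00583). Oas2, a sensor of double-stranded RNA, measured 29.8, 51.5 and 31.5 in HFD and 11.7, 13.7 and 15.8 with the bacterium (log2 difference -1.36, adjusted p = 0.00746). Zbp1, a sensor of Z-form nucleic acid, measured 31.3, 49.9 and 29.6 in HFD and 15.2, 16.1 and 12.1 with the bacterium (log2 difference -1.27, adjusted p = 0.00871). Bst2, also called tetherin, measured 93.9, 169 and 97.4 in HFD and 36.8, 65.7 and 46.2 with the bacterium, adjusted p = 0.0267 (adjusted p = 0.0502 to 0.0777 without HFD replicates 1, 2 and 4 or bacterium replicates 1 and 4, each left out in turn). Ifit1, Ifit2 and Ifit3 did not pass the test; Ifit3 was 24.4, 72.6 and 26.3 in HFD and 22.2, 20.2 and 24.9 with the bacterium (adjusted p = 0.282), HFD replicate 2 standing apart and replicates 1 and 4 level with the bacterium group. Ifit2 was 16.6, 39 and 17.4 in HFD and 13.2, 16.7 and 12.7 with the bacterium (adjusted p = 0.21).

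The core of the interferon-stimulated response element is GAAA, any 2 bases and GAAA. On either strand it occurs in the windows of 19 of 26 interferon-stimulated genes with a promoter in the table (73.1%), and in 4.01% of tested genes, 3.85% of genes called higher and 6.92% of those called lower. Within the list it was in 9 of 12 genes called lower and in 10 of 14 not called. The stretches before the start of Bst2, Gbp3 and Oas1a, the last 2 chosen after their values were seen, show the element, in capitals, on either strand and at different distances. Gbp3 measured 23.2, 45.7 and 25.7 in HFD and 12.3, 12.8 and 13.2 with the bacterium. Oas1a measured 69.4, 97.5 and 77.5 in HFD and 44.1, 50.2 and 39.2 with the bacterium, and both belong to families of close copies. The stretches lie at chr8:71537473-71537622 (minus strand), chr3:142559894-142560043 (plus strand) and chr5:120907526-120907675 (minus strand) of GRCm38.p6, 5′ to 3′ on the strand of the gene.
Bst2: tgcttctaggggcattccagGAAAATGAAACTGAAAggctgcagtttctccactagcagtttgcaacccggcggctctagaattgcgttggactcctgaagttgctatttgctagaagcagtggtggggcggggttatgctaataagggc
Gbp3: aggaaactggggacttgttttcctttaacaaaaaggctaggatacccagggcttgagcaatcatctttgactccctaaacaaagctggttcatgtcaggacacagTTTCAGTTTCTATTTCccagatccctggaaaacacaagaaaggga
Oas1a: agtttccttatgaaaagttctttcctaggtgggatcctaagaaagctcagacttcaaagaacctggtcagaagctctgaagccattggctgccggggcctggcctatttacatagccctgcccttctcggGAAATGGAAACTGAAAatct

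Inflammatory cytokines and targets of NF-kB were lower in 6 of 16 tested members and higher in 1 (median -0.46). Tnfaip3 and Birc3, feedback regulators of the pathway, fell: Tnfaip3 from 11.8, 11.6 and 7.85 to 3.44, 3.96 and 2.55 (log2 difference -1.40, adjusted p = 0.00353). Birc3 fell from 24.9, 24 and 21.7 to 9.27, 8.43 and 6.85 (log2 difference -1.42, adjusted p = 0.000615). The adhesion molecule Icam1 fell from 4.73, 4.83 and 4.39 to 1.1, 2.12 and 2.23 (log2 difference -1.03, adjusted p = 0.00902). The receptor antagonist Il1rn fell from 17.9, 19.1 and 17.6 to 7.91, 8.98 and 8.32 (log2 difference -1.03, adjusted p = 0.000657). The cytokine Tnf measured 2.11, 3.54 and 1.74 in HFD and 1.53, 1.28 and 0.521 with the bacterium (adjusted p = 0.0999). Il1b measured 2.07, 4.3 and 2.61 in HFD and 1.69, 2.08 and 0.835 with the bacterium (adjusted p = 0.136). Il10 measured 0.814, 0.766 and 0.741 in HFD and 0.109, 0.458 and 0.478 with the bacterium (adjusted p = 0.111). Nos2, the inducible nitric oxide synthase, measured 1.72, 1.7 and 1.07 in HFD and 3.35, 0.825 and 0.308 with the bacterium (adjusted p = 0.799). None of these 4 passed the test, and Il6 stayed under the filter. Ptgs2, cyclooxygenase 2, rose from 1.61, 1.57 and 1.35 to 2.33, 2.36 and 2.39, adjusted p = 0.0293 (adjusted p = 0.0657 to 0.101 without HFD replicates 1, 2 and 4 or bacterium replicates 1 and 4, each left out in turn).

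Chemokines and their receptors were lower in 15 of 29 tested members and higher in none (median -0.73). Ccl19, which draws Ccr7-bearing cells to lymphoid tissue, measured 4.92, 5.14 and 6.39 in HFD and 1.32, 0.484 and 0.197 with the bacterium (log2 difference -2.01, adjusted p = 0.00225). Ccl20, made by epithelium over follicles, measured 7.28, 7.85 and 8.12 in HFD and 2.27, 0.76 and 1.4 with the bacterium (log2 difference -1.87, adjusted p = 0.00184). The monocyte attractant Ccl7 measured 17.2, 56.4 and 27.7 in HFD and 3.39, 5.84 and 3.76 with the bacterium (log2 difference -2.57, adjusted p = 0.00634). Ccl8 measured 58.3, 109 and 52.3 in HFD and 8.68, 23.4 and 20.7 with the bacterium, adjusted p = 0.0162 (adjusted p = 0.0516 without HFD replicate 2); HFD replicate 2 was highest for both. Toll-like receptors and LPS recognition gave 9 of 27 tested members lower and 2 higher (median -0.16), and 1 of the 9 passed the filter through HFD only. Cd14, the LPS coreceptor, measured 54.7, 65.1 and 59.1 in HFD and 21.3, 19.5 and 17.5 with the bacterium (log2 difference -1.57, adjusted p = 0.000315). Cd180 of B cells measured 4.17, 3.54 and 3.61 in HFD and 0.587, 0.306 and 0.77 with the bacterium (log2 difference -1.63, adjusted p = 0.000585). Tlr5, which binds flagellin, rose from 0.462, 0.677 and 0.704 to 2.01, 1.97 and 2.89 (log2 difference 1.02, adjusted p = 0.00474). Tlr2, which binds bacterial lipoproteins, rose from 7.06, 7.81 and 7.83 to 16.5, 13.4 and 16.3 (log2 difference 0.94, adjusted p = 0.00217). Tlr4, which binds LPS, did not pass the test at 5.51, 5.17 and 6.53 in HFD and 5.68, 5.48 and 3.97 with the bacterium (adjusted p = 0.487).

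Enteric neuron and glia genes were higher in 17 of 24 tested members and lower in none (median 0.83). The count was 9, 7 and 9 without HFD replicate 1, 2 or 4, and 8 with all 9 libraries in 1 fit. Bacterium replicate 1 was the highest of the 6 libraries in 19 of the 24. Gal, the neuropeptide galanin, measured 4.2, 5.24 and 3.7 in HFD and 70.5, 26.3 and 34.7 with the bacterium (log2 difference 2.95, adjusted p = 0.00175) and 42.3, 36.8 and 14.1 in control. Cartpt, another neuropeptide precursor, measured 0.585, 0.611 and 0.537 in HFD and 6.89, 3.15 and 2.41 with the bacterium (log2 difference 1.61, adjusted p = 0.0112). Snap25, of synaptic vesicle fusion, measured 2.47, 2.19 and 2.54 in HFD and 10.6, 5.38 and 7.24 with the bacterium (log2 difference 1.32, adjusted p = 0.0068). Uchl1, the neuronal marker PGP9.5, rose from 12.3, 11.6 and 13.5 to 52, 22.2 and 42.6, adjusted p = 0.0138 (adjusted p = 0.0531 to 0.0559 without HFD replicates 1 and 2, each left out in turn). Smooth muscle genes were higher in 4 of 22 tested members (median 0.47), in none without HFD replicate 1 or 2, in 1 without HFD replicate 4 and in 7 without bacterium replicate 3. Acta2, smooth muscle actin, did not pass the test at 538, 565 and 496 in HFD and 867, 515 and 713 with the bacterium (adjusted p = 0.292). Nor did the myosin Myh11, at 160.5, 164 and 125 in HFD and 243, 145 and 166 with the bacterium (adjusted p = 0.428). Bacterium replicate 1 was the highest of the 6 in 20 of 22 smooth muscle genes, and the sum of the list was 1892 to 2167 in HFD and 2527 to 4618 with the bacterium. The part of the muscle wall in the neuron values was not tested.

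Adipocyte genes were higher in 7 of 17 tested members and lower in none (median 1.29), but 2 without HFD replicate 2 or 4, 3 without bacterium replicate 4 and 4 under TPM scaling. HFD replicate 1 was the highest of its group in 15 of the 17 and bacterium replicate 1 the lowest of its group in 15. Adiponectin, Adipoq, measured 18.3, 0.727 and 0.248 in HFD and 9.74, 37.7 and 45.2 with the bacterium and did not pass the test (adjusted p = 0.105). Lep was 0.715, 0.0166 and 0.017 in HFD and 0.32, 2.95 and 3.82 with the bacterium (adjusted p = 0.121). Pparg, which colonocytes also express, rose from 11.1, 11.7 and 11 to 25.6, 28.5 and 22.5 (log2 difference 1.11, adjusted p = 0.00103), and both groups were even. Retn rose from 3.98, 0.60 and 0.289 to 7.57, 22.8 and 30.1, adjusted p = 0.0171 (adjusted p = 0.0561 to 0.0669 without HFD replicates 2 and 4 or bacterium replicate 4, each left out in turn). The sum of the list was 68 to 195 in HFD and 196 to 492 with the bacterium, so the groups missed overlapping by a narrow margin. The part of fat in the lipid genes described above was not tested. Of 5 tested mesothelial genes 1 rose, Upk1b, from 1.74, 1.73 and 1.37 to 2.57, 6.46 and 4.55, adjusted p = 0.035 (adjusted p = 0.0937 to 0.106 without HFD replicates 1, 2 and 4 or bacterium replicate 4, each left out in turn).

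Fibroblast and matrix genes were lower in 5 of 30 tested members and higher in none (median -0.26), with 1 without HFD replicate 1 or 2, 3 without HFD replicate 4 and 2 without bacterium replicate 1. Among the 5, 1 passed the filter through HFD only. Elastin, Eln, measured 7.85, 6.2 and 5.97 in HFD and 3.07, 3.24 and 4.1 with the bacterium (log2 difference -0.78, adjusted p = 0.0106). Col1a1 measured 32, 33.3 and 29.1 in HFD and 16.4, 22.3 and 17.8 with the bacterium, adjusted p = 0.012 (adjusted p = 0.0524 to 0.0546 without HFD replicates 1 and 2, each left out in turn). Endothelial and lymphatic genes were lower in 6 of 16 tested members and higher in 1 (median -0.33), with 2 lower without HFD replicate 1, 2 or 4 and 3 without bacterium replicate 1. Vcam1, which holds leukocytes at vessels, measured 5.44, 5.74 and 5.83 in HFD and 1.9, 2.37 and 2.14 with the bacterium (log2 difference -1.09, adjusted p = 0.000716). Madcam1, a ligand for gut homing of lymphocytes, measured 3.01, 2.64 and 4.02 in HFD and 0.299, 0.418 and 1.15 with the bacterium (log2 difference -1.40, adjusted p = 0.00656). Of 13 listed mast cell genes 4 were tested, Cpa3 and Tpsb2 staying under the filter. Of the 4, 2 fell, or 1 in each fit with 1 library less other than HFD replicate 1, and 1 rose. Cma1, a chymase, measured 9.39, 12.9 and 14.6 in HFD and 0, 0.0551 and 0.157 with the bacterium (log2 difference -3.62 ± 0.17 SE, with all 3 bacterium libraries under the filter), while Kit, also the marker of pacemaker cells in the muscle, rose from 6.58, 5.59 and 6.66 to 12.7, 13.2 and 11.8 (log2 difference 0.90, adjusted p = 0.00178). Of 14 listed pancreatic acinar genes 4 were tested, the elastase genes Cela2a and Cela3b staying under the filter. Of the 4, 2 fell (1 in each fit with 1 library less other than bacterium replicate 3). The elastase Cela1 measured 80.6, 94.7 and 100.2 in HFD and 13.3, 21.5 and 11.7 with the bacterium (log2 difference -2.53, adjusted p = 0.000554). The other acinar gene that fell passed the filter through HFD only, and without it the median of the list was 0.39 in place of -0.12. Of 10 listed skeletal muscle genes 4 were tested and 2 rose. Ckm measured 2.03, 1.57 and 1.24 in HFD and 6.73, 3.38 and 5.04 with the bacterium (log2 difference 1.18, adjusted p = 0.0124). Myl1 measured 0.591, 0.484 and 0.358 in HFD and 2.24, 1.27 and 2.58 with the bacterium (log2 difference 1.01, adjusted p = 0.0119). None of 4 tested erythrocyte genes was called.

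Mitochondrially encoded protein genes were higher in 10 of 13 members and lower in none (median 1.72), with 3 without HFD replicate 1 or 2, 6 without HFD replicate 4 and 4 without bacterium replicate 4. Bacterium replicate 1 was the highest library in 12 of the 13. The complex I subunit mt-Nd3 measured 26.2, 31.2 and 45.8 in HFD and 181, 81.2 and 147 with the bacterium (log2 difference 1.92, adjusted p = 0.00867). The complex IV subunit mt-Co1, the most abundant of them, measured 16326, 13875 and 17012 in HFD and 58251, 30249.9 and 42609 with the bacterium, adjusted p = 0.0494 (adjusted p = 0.0582 to 0.164 without HFD replicates 1, 2 and 4 or bacterium replicates 1, 3 and 4, each left out in turn). Mitochondrial ribosomal and transfer RNA gave 11 of 16 tested members higher (median 1.85), and 7 without HFD replicate 1. The large ribosomal RNA mt-Rnr2 measured 616, 703 and 835 in HFD and 4714, 2029.9 and 4219.9 with the bacterium (log2 difference 2.27, adjusted p = 0.00566). By contrast, respiratory chain subunits encoded in the nucleus had a median of 0.08, which became -0.12 under TPM scaling. Of 79 tested members 4 were called, all higher, below the 9.04% called higher over all genes tested. Those calls numbered 13 without bacterium replicate 3, 2 without HFD replicate 2 or 4, 1 without HFD replicate 1 or bacterium replicate 1 or under TPM scaling, and 9 under quantile normalization. Cytosolic ribosomal protein genes were lower in 15 of 84 tested members and higher in none (median -0.42), and in 0 without HFD replicate 1 or 2, 2 without bacterium replicate 1 or 4 and 23 without bacterium replicate 3. Under TPM scaling 39 were lower, and 25 without mitochondrial and immunoglobulin genes. Rps28 measured 65.7, 79 and 37.3 in HFD and 16.7, 32.4 and 10.7 with the bacterium, adjusted p = 0.0385 (adjusted p = 0.0932 to 0.127 without HFD replicates 1 and 2 or bacterium replicates 1 and 4, each left out in turn). Many of these genes have processed pseudogenes, so single members are uncertain.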

How the data were processed

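RNA of mouse colon was extracted with Trizol and sequenced on Illumina libraries, per the labels' protocols. The authors deposited 1 table of FPKM values with 54491 genes and 9 libraries, per the file headers. The submitters' processing notes name HISAT2 2.0.5 and GRCm39. A counting tool or annotation is not given in the sources used here. Symbols were found for 52093 identifiers, and GENCODE M21 gave a gene type for 52147. FPKM keeps no totals, and low values in whole-number ratios gave only the relative library size used for scaling, so no count test was used.

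From these values, log2(FPKM + 1) of the 16962 genes reaching 0.5 FPKM in 3 or more of the 6 libraries was fitted with limma 3.58.1 (R 4.3.3), with a variance trend, 3 libraries per group and no covariate, two-sided. P-values were adjusted by Benjamini-Hochberg over all 16962 genes, with calls below 0.05. The fit was tested on simulated data. The members and the 63 gene lists were chosen with earlier results of these data known; lists are described by counts and medians, with no test.

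Named genes were the 15 largest called differences per direction (groups not overlapping, mean of at least 1 FPKM, no unnamed models, pseudogenes or variable segments), up to 4 called members per list with the largest difference and up to 2 in the opposite direction, a panel of barrier, inflammation, lipid and hormone genes, and the first 3 members of each list; a few of them, and their points in the plot of lipid genes, are not reported here. Alternatives were a fit of all 9 libraries, a pseudocount of 0.1, no filter, a filter of 1 FPKM, TPM, median-of-ratios and quantile scaling, leaving out mitochondrial and immunoglobulin genes, no trend, a replicate block and each library left out.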

Additional observations from a re-analysis of the deposited data

How the results depend on the processing

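All 3316 called genes, with the 285 named ones among them, kept their direction in every alternative that tested them. For most alternatives this was fixed in advance. The groups of these genes did not overlap, so leaving out a library, a replicate block or another pseudocount could not turn the sign. Another filter, no trend or adding the control libraries leaves the difference itself unchanged. Only the rescaled fits could have turned it, and median-of-ratios scaling hardly could, with factors of 0.9975 to 1.006. Of the 285 named genes, 202 were called in each fit with 1 library less. Leaving out 1 library in turn gave 1829 to 4523 calls, 819 to 2060 of them higher and 976 to 2463 lower, the most without bacterium replicate 3. With all 9 libraries in 1 fit 841 genes were higher and 220 of the 285 named genes were called; counts of higher members were then 6 for brush border, 7 for fatty acid oxidation and 6 for conjugation genes, in place of 11, 16 and 13. In that fit the counts of 22 lists and directions moved by over 1.5 times and by at least 2 genes, all downwards, among them higher members of bile acid (3 of 6 left), enteric neuron and glia (8 of 17), smooth muscle (0 of 4) and adipocyte genes (2 of 7). Replicate numbers 1 and 4 occur in both groups, but the labels do not say that they pair libraries, and deviations of same-numbered libraries correlated at -0.168 and -0.017. With the number as a replicate block there were 1737 calls, 822 higher and 915 lower, and 205 of the 285 named genes were called. By the measure used above, the block moved 35 list counts, 33 down and 2 up. Lower members left were 2 of 8 for Gimap, 2 of 9 for Toll-like receptor and 4 of 12 for T and NK cell genes. For cytosolic ribosomal protein genes 1 of 15 was left. HFD replicate 2 and bacterium replicate 3 have no partner of the same number. They add nothing to the group difference in that fit, which rests on replicates 1 and 4 of each group. TPM scaling kept 269 of the named calls, no filter 232, quantile normalization 273, a pseudocount of 0.1 280 and no trend 282. By the same measure TPM scaling moved 14 list counts, 8 down and 6 up. Leaving out mitochondrial and immunoglobulin genes, a filter of 1 FPKM and median-of-ratios scaling moved at most 1 of the named calls still tested. For median-of-ratios scaling this was nearly fixed in advance by the factors given above. Without the 10 genes of highest mean, the mitochondrial share differed by 3.598 percentage points and the immunoglobulin share by -4.072. Depth is unknown, so a gene listed at 0 may be expressed at a low level.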

Other observations

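Glycolysis and hypoxia genes gave 6 of 29 tested members higher and 4 lower, or 2 lower without HFD replicate 1 or 2 and 8 without bacterium replicate 3 (median -0.15). Ndrg1, a differentiation and stress gene, measured 10.1, 9.31 and 11.4 in HFD and 36.6, 30.5 and 39.6 with the bacterium (log2 difference 1.69, adjusted p = 0.000364). The oxygen sensor Egln3 fell from 47.5, 28.9 and 29.7 to 14.7, 13 and 9.94 (log2 difference -1.40, adjusted p = 0.00685). Ddit4, an inhibitor of mTOR, fell from 31, 34 and 19.6 to 6.16, 14.4 and 10.4, adjusted p = 0.0236 (adjusted p = 0.0612 to 0.0876 without HFD replicates 1 and 2 or bacterium replicate 4, each left out in turn). Antioxidant genes and targets of Nrf2 gave 6 of 21 tested members higher and 1 lower, or 2 lower without HFD replicate 4 and 5 without bacterium replicate 3 (median 0.16, or -0.04 under TPM scaling, with 3 lower). Nqo1, a quinone reductase, measured 6.46, 6.25 and 8.31 in HFD and 27.4, 27.1 and 29.8 with the bacterium (log2 difference 1.87 ± 0.12 SE, adjusted p = 0.000187). Cat, or catalase, measured 34.3, 24.7 and 32.6 in HFD and 76.4, 59.1 and 98.9 with the bacterium (log2 difference 1.31, adjusted p = 0.0074). Gclc, of glutathione synthesis, measured 18.3, 16.3 and 19.1 in HFD and 36, 32.6 and 42.6 with the bacterium (log2 difference 1.004, adjusted p = 0.00279). Prdx6, a peroxiredoxin that also acts on phospholipids, fell from 566, 461 and 471 to 64.4, 77.3 and 35 (log2 difference -3.13 ± 0.29 SE, adjusted p = 0.000668).

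Clock genes vary with the time of day, and the time of sampling is not given in the labels. Of 19 tested, 4 fell (1 without HFD replicate 1 or 2, 2 without HFD replicate 4) and 1 rose (median -0.05). The gene that rose was the repressor Cry1, at 8.64, 11.2 and 9.58 in HFD and 15.9, 15.8 and 12 with the bacterium, adjusted p = 0.0473 (adjusted p = 0.0688 to 0.157 without HFD replicates 1, 2 and 4 or bacterium replicates 1 and 3, each left out in turn). Clock measured 11.6, 10.8 and 12.3 in HFD and 7.36, 7.71 and 7.17 with the bacterium (log2 difference -0.58, adjusted p = 0.00722), with 5.66, 5.95 and 5.86 in control. Its partner Arntl measured 9.65, 9.3 and 10.2 in HFD and 7.06, 6.81 and 5.22 with the bacterium, adjusted p = 0.0246 (adjusted p = 0.0735 to 0.0868 without HFD replicates 1, 2 and 4, each left out in turn). Bhlhe40 measured 29.8, 34.3 and 24.4 in HFD and 12.2, 16.7 and 18 with the bacterium, adjusted p = 0.0174 (adjusted p = 0.0662 to 0.0667 without HFD replicates 1 and 2, each left out in turn). Immediate early and heat shock genes, which respond to handling of tissue, gave 2 of 22 tested members higher and 2 lower. These counts are near the 9.04% higher and 10.5% lower over all genes tested. In the fits with 1 library less 3 were higher without bacterium replicate 1 and 1 in each other fit, 0 or 1 were lower, and 5 were lower under TPM scaling. Jun was 32.4, 32.3 and 27 in HFD and 55, 44.5 and 49 with the bacterium (log2 difference 0.68, adjusted p = 0.0116). Junb was 52.9, 41.8 and 23.8 in HFD and 19.3, 16.8 and 18.6 with the bacterium, adjusted p = 0.0431 (adjusted p = 0.0819 to 0.138 without HFD replicates 1 and 2 or bacterium replicates 1, 3 and 4, each left out in turn). In the unfolded protein response 1 of 17 tested genes rose and 1 fell, below the shares of 9.04% and 10.5% over all genes tested. Without bacterium replicate 3 there were 6 that fell, and none fell in each other fit with 1 library less; none rose without an HFD library or bacterium replicate 4. Hspa5, its central chaperone, did not pass the test at 87.9, 97.5 and 87.5 in HFD and 64.4, 125 and 71.7 with the bacterium (adjusted p = 0.764).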
